A study of Homo sapiens with 4 samples.

Results

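The long intergenic noncoding RNAs with a LINC symbol that were expressed in 2 human bladder cancer cell lines are described here. A row of the gene table was taken as a member where its name was LINC followed by digits alone, its exonic length was at least 200 bases and its level was at least 1 RPKM (reads per kilobase of exonic length per 1000000 assigned reads) in any of the 4 libraries. This gave 96 members out of 443 LINC-named rows and 32973 listed genes. The level itself thus chose the members. The members just inside the threshold were LINC00648, LINC00987 and LINC00449, whose highest values were 1.00, 1.01 and 1.02 RPKM. LINC01006, LINC00893 and LINC01389 lay just outside it, with highest values of 0.988, 0.964 and 0.962 RPKM.

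T24T is a tumorigenic variant of the T24 bladder carcinoma line, and UMUC3 is another line derived from a bladder carcinoma. Cells of each line carried, after stable transfection, either the vector or a plasmid that overexpresses BCUC-1 (hsa_circ_0001361), a circular RNA, and the study set out to screen what BCUC-1 regulates. Vector and BCUC-1 cells of T24T and of UMUC3 make 4 groups with 1 library of total RNA each, so a comparison within a line compares 2 libraries, not the conditions, and has no replicate check. Where a gene has 4 values, they are those of vector and BCUC-1 in T24T and then of vector and BCUC-1 in UMUC3. Whether a stable transfectant was 1 clone or a pool is not stated in the labels. The libraries held 22730112 to 26497894 assigned reads. In such bulk libraries, fewer cells with an RNA and less of it per cell cannot be told apart. The epithelial keratin genes KRT7, KRT8 and KRT18 were expressed in every library, and the luminal regulator gene PPARG stood at 1.603 to 1.87 RPKM in all 4, while FOXA1 and UPK1B reached 1 RPKM in T24T alone. The markers CDH1, KRT5, KRT20 and UPK3A were at or near 0 in all 4. Of the 17 urothelial and epithelial markers listed, 16 were in the table and 6 reached 1 RPKM, and their summed level was 247.3 and 264.1 RPKM in T24T against 59.23 and 61.42 RPKM in UMUC3. The mesenchymal genes VIM, CDH2 and ZEB1 summed to 93.74 and 98.28 RPKM in T24T and to 262.1 and 294.1 RPKM in UMUC3. Most of each sum was VIM (82.9, 87.0, 233.8 and 267.5 RPKM in the order above). VIM and ZEB1 were higher in UMUC3, whereas CDH2 was slightly lower there, at 5.50 and 5.31 RPKM against 6.64 RPKM in both T24T libraries. Endothelial and fibroblast markers summed to under 1 RPKM in each library. The leukocyte marker CD68, a lysosomal protein that is abundant in macrophages and also made elsewhere, stood at 7.45, 6.78, 119.2 and 124.5 RPKM. The part of these line differences in the values below was not tested.

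Long noncoding RNAs are transcribed by RNA polymerase II, mostly spliced and polyadenylated like messenger RNAs, and named LINC plus a number where no function was known when the name was given. Some act in the nucleus on nearby genes or on chromatin, some act in the cytoplasm on proteins, mRNAs or microRNAs, and some loci were later found to encode short proteins. As a class they are known for low levels and for expression restricted to few tissues or cell types. Many of the best known ones in tumour cells, such as LINC00958, first named as a bladder cancer associated transcript, were found because they were high in a cancer.

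The members were spread over 22 chromosomes and were 436 to 17599 exonic bases long, with a median of 2462 bases, and 10 had a single exon. In RefSeq, all 96 symbols were found, 19 of them under a new name, and 5 are now listed as protein-coding. These 5 are LINC00116 (MTLN, a microprotein of the mitochondrial inner membrane), LINC01420 (NBDY, a short protein that binds the mRNA decapping machinery), LINC00493 (SMIM26), LINC00998 (SMIM30) and LINC00094 (BRD3OS). Among the renamed noncoding members are LINC00152 (CYTOR), LINC01578 (CHASERR), LINC01021 (PURPL) and LINC01296 (DUXAP9, a transcribed pseudogene). Exons of 40 members overlapped an exon of another listed gene, 31 of them on the opposite strand and 13 on the same strand. How such bases were counted is not stated in the labels, so reads of these members may come in part from the other gene.

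The members were low in all libraries. Their summed level was 721.2, 674.1, 1017 and 979.4 reads per 1000000, which is 0.0721%, 0.0674%, 0.102% and 0.0979% of the assigned reads. Both UMUC3 libraries were above both T24T libraries, but without LINC01029, LINC00958 and LINC00707 the sums were 702.6, 654.9, 688.5 and 695.1 and the lines overlapped. The highest RPKM of a member had a median of 2.74, and only 8 members exceeded 10 RPKM in a library, whereas 58 peaked between 2 and 10 RPKM and 30 below 2 RPKM. The median over members of the mean level was 1.81 RPKM. Under the same length and level rule it was 13.7 RPKM for the 19 small nucleolar RNA host genes with SNHG symbols, 2.43 RPKM for 368 genes with antisense (-AS) symbols, 1.77 RPKM for 16 microRNA host genes with MIR and HG symbols and 6.20 RPKM for 11156 protein-coding genes. A level of 1 RPKM in all 4 libraries was reached by 45 members (46.9%), against 84.2% of the SNHG genes, 64.1% of the antisense genes, 56.2% of the microRNA host genes and 83.6% of the protein-coding genes.

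Of the 96 members, 49 reached 1 RPKM in both lines, 30 in UMUC3 alone and 17 in T24T alone. The split uses the threshold that chose the members and is a description. These are 51%, 31.2% and 17.7% of the members. Under the same length and level rule 81.3% of 15471 genes reached 1 RPKM in both lines, 7.54% in UMUC3 alone and 11.2% in T24T alone. Both lines reached it for 71.2% of the antisense genes, 85.4% of the protein-coding genes and 89.5% of the SNHG genes. The 16 microRNA host genes were close to the members, with 56.2% in both lines, 31.2% in UMUC3 alone and 12.5% in T24T alone. Of the 47 members at 1 RPKM in 1 line alone, 42 had at least 100 reads in all, and of these 27 were at least 10-fold apart while 5 were under 2-fold apart, such as LINC01355 (1.65-fold) and LINC01572 (1.37-fold). Such members entered through the line where they are high, and the share over all genes was not computed for these fold counts. Only 5 members reached 1 RPKM in a single library (LINC00987, LINC00449, LINC00648, LINC00926 and LINC01510). In T24T, 9 members had no read in either library, and in UMUC3 1 member, LINC00621, had none.

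**Figure D1:**
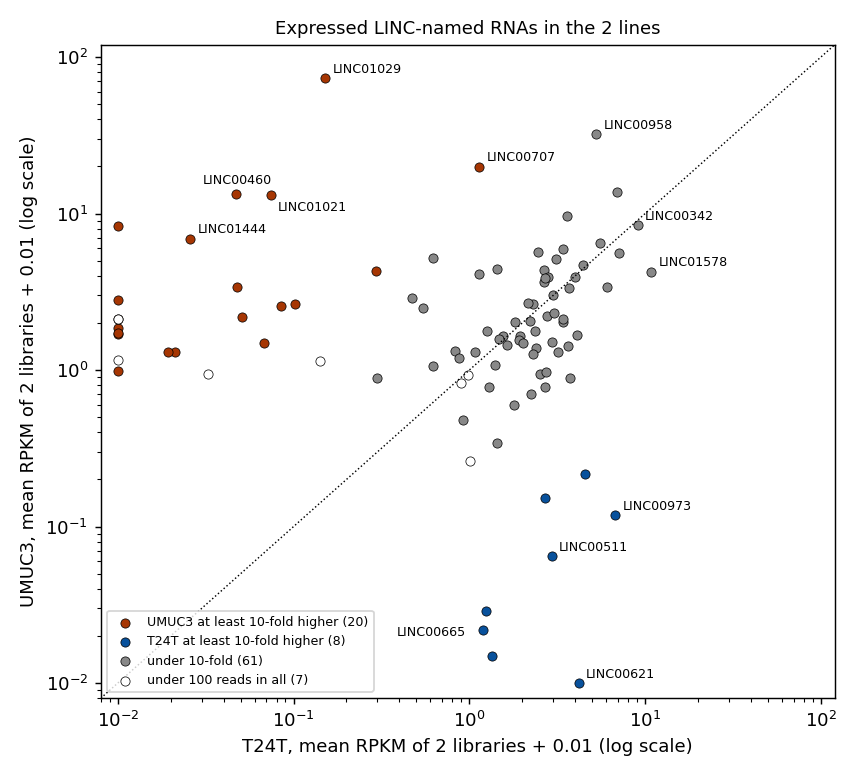
Mean RPKM of each of the 96 LINC-named RNAs in T24T (horizontal axis) and UMUC3 (vertical axis), each the mean of 2 libraries plus 0.01 on log scales, with the dotted line at equal levels. The 20 RNAs at least 10-fold higher in UMUC3 lie at the upper left, the 8 at least 10-fold higher in T24T at the lower right, and 7 with under 100 reads in all are open.

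LINC01029, a spliced RNA of chromosome 18 (chr18:77971294-77993722, minus strand, 7 exon blocks), reached the highest value of any member. Its level was 0.101 and 0.182 RPKM in T24T vector and BCUC-1, and 77.1 and 68.9 RPKM in UMUC3 vector and BCUC-1. These are 5 and 9 reads against 4278 and 3281 reads. The lines did not overlap, and the level of UMUC3 was 518-fold that of T24T, with an exact (Clopper-Pearson) 95% interval of 309 to 949. All intervals here are of counting error alone, since they are computed from read counts without replicates. Libraries that lack molecular identifiers can also hold copies of 1 molecule, which would make the intervals too narrow. Its nearest protein-coding gene lies 837611 bases away, and no exon of another listed gene overlaps it.

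LINC00460, an RNA often reported as raised in carcinomas, and LINC01021, known as PURPL for its induction by p53 and its effect on p53 levels, were likewise almost absent from T24T. LINC00460 stood at 0, 0.0736, 13.1 and 13.4 RPKM, which is 2 reads in T24T and 750 in UMUC3. LINC01021 stood at 0.0800, 0.0482, 12.9 and 13.5 RPKM. Both were high in both UMUC3 libraries and near 0 in both T24T libraries, with folds of 360 (95% interval 99.3 to 2979) and 205 (104 to 476).

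LINC00958 and LINC00707 differed from these in that T24T expressed them too. LINC00958, on the minus strand of chromosome 11 (chr11:12961842-12989548), had the highest mean log2 level of all members, at 5.24 and 5.32 RPKM in T24T and 34.8 and 29.6 RPKM in UMUC3. It was expressed in every library and was 6.14-fold higher in UMUC3 (5.67 to 6.65). LINC00707 (chr10:6779598-6842906, plus strand) stood at 1.09 and 1.17 RPKM in T24T and at 21.8 and 17.9 RPKM in UMUC3, a 17.7-fold difference (15.1 to 20.9). For both RNAs the lowest UMUC3 library was above the highest T24T library.

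The 5 RNAs described so far and the next 5 are the 10 largest differences towards UMUC3 on the log2(RPKM + 1) scale, which weighs level as well as fold. LINC01518 (chr10:42674197-42691723, minus strand) had no read in T24T and stood at 7.71 and 8.90 RPKM in UMUC3. Against a floor of 3 reads over both T24T libraries it was 67.5-fold higher in UMUC3, with an exact lower limit of 54.4-fold. LINC01444, on chromosome 18, had 1 read in T24T and stood at 6.30 and 7.48 RPKM in UMUC3, a 432-fold difference with a wide interval of 77.2 to 17104. LINC01444 lies within the span of LINC01443 on the opposite strand, and LINC01443 showed the same split at 0.0186, 0, 1.05 and 1.53 RPKM. LINC01234, often described in tumour cells, stood at 0.0283, 0.0473, 3.28 and 3.45 RPKM. LINC01322 stood at 0.341 and 0.228 RPKM in T24T and at 5.32 and 3.31 RPKM in UMUC3. LINC00106 (0.571, 0.644, 5.48 and 4.90 RPKM) was 8.59-fold higher in UMUC3 (5.19 to 15.1), and its neighbour SLC25A6, a mitochondrial ADP/ATP carrier gene 3703 bases away, differed the same way with a log2 difference of 1.42. In each of these 5 the lines did not overlap.

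Fewer members were higher in T24T. LINC00973, on the plus strand of chromosome 3 (chr3:98981058-98983096), had the largest difference on the log2(RPKM + 1) scale, with 6.45 and 7.05 RPKM in T24T vector and BCUC-1 and 0.0785 and 0.137 RPKM in UMUC3, that is 307 reads against 5. It was 63.9-fold higher in T24T (27.1 to 198). Its nearest protein-coding gene, DCBLD2, a transmembrane receptor gene 79369 bases away that was singled out after its values were seen, split the same way, at 123.2 and 125.4 RPKM in T24T and 1.995 and 2.06 RPKM in UMUC3. On the log2 scale the difference of UMUC3 over T24T was -6.00 for the RNA and -5.94 for DCBLD2.

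LINC00511, which is reported as raised in several carcinomas, stood at 3.02 and 2.84 RPKM in T24T and at 0.0482 and 0.0613 RPKM in UMUC3. It was 54.0-fold higher in T24T (35.8 to 85.6). LINC00665, another RNA described in tumours, stood at 1.17, 1.21, 0.00524 and 0.0183 RPKM, a 105-fold difference (40.9 to 389). Both split by line in every library. LINC01127 (1.37, 1.28, 0.00983 and 0 RPKM) lies 4677 bases from IL1R2, a decoy receptor for interleukin 1, which was low in T24T at 0.508 and 0.414 RPKM and had 0 and 3 reads in UMUC3. LINC01629 stood at 4.51 and 4.52 RPKM in T24T and 0.260 and 0.151 RPKM in UMUC3. LINC01224, 3673 bases from the zinc finger gene ZNF91, stood at 2.87, 2.48, 0.126 and 0.160 RPKM. LINC00960 stood at 1.23 RPKM in both T24T libraries and at 0.0237 and 0.0138 RPKM in UMUC3. All of these were higher in both T24T libraries than in either UMUC3 library.

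LINC00621 was the member with no read in UMUC3, at 4.99 and 3.35 RPKM in T24T. Against a floor of 3 reads over both UMUC3 libraries it was 80.5-fold higher in T24T, with an exact lower limit of 65.0-fold. An exon of the pseudogene NUS1P2 covers 652 of its bases (55.4% of its length) on the opposite strand, and NUS1P2 had the same split, at 6.34, 4.66, 0 and 0.0504 RPKM, so the source of these reads cannot be told apart. The remaining 2 of the 10 largest differences towards T24T on the log2(RPKM + 1) scale were smaller in fold. LINC00205 stood at 3.55 and 3.93 RPKM in T24T and 0.814 and 0.949 RPKM in UMUC3, 4.27-fold apart. LINC01578 (CHASERR), which is known to limit expression of the chromatin remodeller gene CHD2 next to it, stood at 11.2 and 10.4 RPKM in T24T and 4.04 and 4.46 RPKM in UMUC3. CHD2, 488 bases away, was also higher in T24T, at 12.4 and 12.0 RPKM against 5.94 and 6.07 RPKM.

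**Figure D2:**
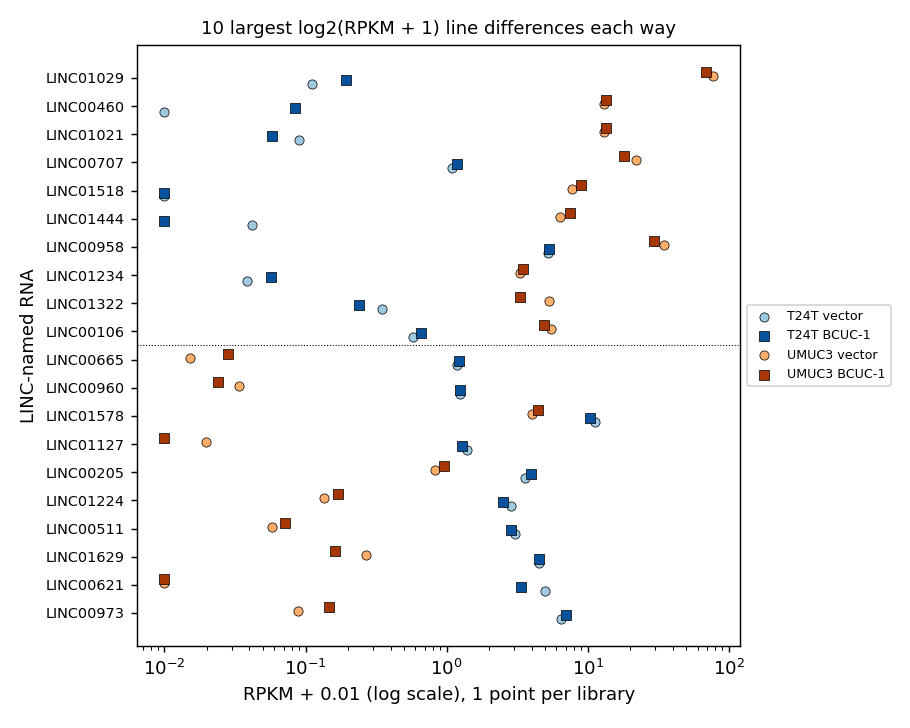
RPKM plus 0.01 on a log scale of the 10 LINC-named RNAs with the largest log2(RPKM + 1) difference towards UMUC3 (above the dotted line) and the 10 towards T24T (below it), 1 point per library, with values at 0 drawn at 0.01. In each row the 2 libraries of a line lie together and apart from those of the other line, also for LINC00958 and LINC01578, which both lines expressed.

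A pair of members overlapped each other and moved together between the lines. LINC01270 and LINC01271 lie on opposite strands of chromosome 20 and share 1333 exonic bases. LINC01270 stood at 0.0701, 0.113, 2.59 and 2.64 RPKM and LINC01271 at 0.0563, 0.0942, 2.60 and 2.54 RPKM, and they were 28.7-fold and 34.2-fold higher in UMUC3. Reads in the shared bases can belong to either RNA. LINC00884 (0.0578, 0.0580, 1.45 and 1.52 RPKM) shares 198 exonic bases on the opposite strand with both ATP13A3 and AC108676.1. ATP13A3, a P-type ATPase gene, stood at 21.5, 21.7, 28.02 and 25.6 RPKM, while AC108676.1 stood at 0.0569, 0.0143, 8.20 and 8.64 RPKM and so had the line split of LINC00884.

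Counted over both libraries of a line, 28 of the 89 members with at least 100 reads in all differed at least 10-fold between the lines, 20 towards UMUC3 and 8 towards T24T, and 41 differed under 2-fold. The same threshold was passed by 7.36% of all 16006 genes with 100 reads, 6.06% of the protein-coding genes, 8.02% of the antisense genes, 5.26% of the SNHG genes and 21.4% of the microRNA host genes. For the members the share was 31.5%. The 10-fold threshold was chosen after the values were seen, and a rule that admits a gene on 1 high library favours genes that are high in 1 line. Of the 28 members, 27 reached 1 RPKM in 1 line alone. The same level rule held for the named classes. The shares were also set out by the highest level, which does not remove the choice by level. Of members with a highest level of 1 to 2 RPKM, 41.7% differed 10-fold, against 15.7% of protein-coding and 9.21% of antisense genes. At 2 to 5 RPKM the shares were 22.7%, 8.96% and 8.94%, at 5 to 10 RPKM 30.8%, 4.70% and 6.90%, and at 10 RPKM and over 4 of 8 members passed, against 2.61% and 5.97%. The share was higher for the members in each of the 4 ranges, although the last range holds 8 members and the third 13. These shares are a description. Among the 53 members whose exons overlap no other gene, 22 differed 10-fold (41.5%). The share of all genes without exon overlap was not computed, so this count has no matched background. The vector libraries alone and the BCUC-1 libraries alone each gave 28 of 89, and with at least 500 reads in all the count was 6 of 43 members against 4.34% of all genes.

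**Figure D3:**
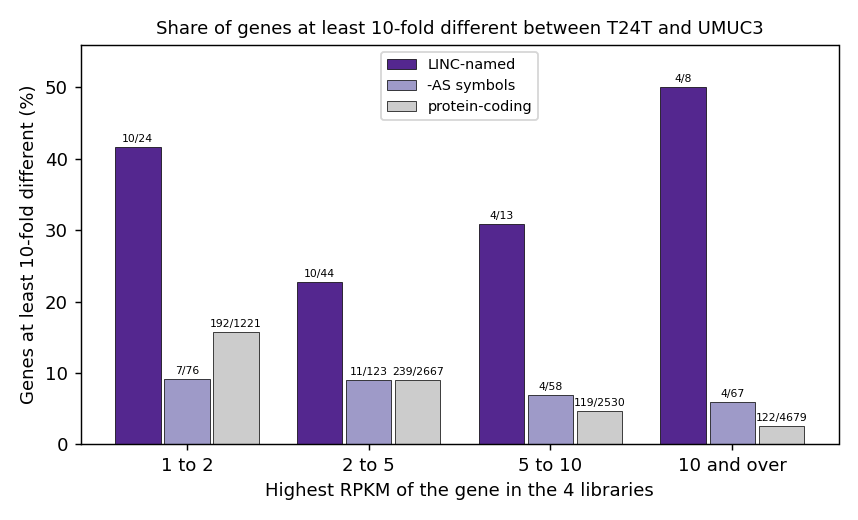
Percent of genes at least 10-fold different between T24T and UMUC3 (vertical axis), by the highest RPKM of the gene in the 4 libraries (horizontal axis), for LINC-named, antisense and protein-coding genes with at least 100 reads in all. Labels on the bars give genes past the threshold over genes in the range, and the LINC-named bar is the highest in each range, at 22.7% or more.

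Limma with an intensity trend was fitted on log2(RPKM + 1) of the 15415 genes that reached 1 RPKM in 2 libraries or more. Of the 91 members it tested, 68 differed between the lines at a Benjamini-Hochberg adjusted p of 0.05, 40 higher in UMUC3 and 28 higher in T24T. Over all genes the test called 70.4%, with 29.6% higher and 40.8% lower in UMUC3, so the share of members called is near the background. The libraries of the lines did not overlap for 80 of the 91 members tested (85 of all 96), against 85.7% of all genes tested. The 2 libraries of a line differ in plasmid, nothing says how the cultures were kept apart, and the p-values measure only the spread between these 4 libraries. With the libraries set to equal medians, the median line difference of all genes moved from -0.10 to 0.02 on the log2 scale and the members called were 45 higher and 25 lower in UMUC3. Across all genes that scaling moved the split from 4558 higher and 6289 lower to 5550 higher and 5201 lower.

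Other members with a high mean level reached 1 RPKM in every library. LINC00941, described as raised in several cancers, stood at 7.20, 6.71, 13.9 and 13.5 RPKM. The lines did not overlap, and the RNA was higher in UMUC3 (log2 difference of RPKM + 1 of 0.89 ± 0.080 SE, limma adjusted p = 1.01e-04). LINC00152 (CYTOR), a cytoplasmic RNA linked to the cytoskeleton and to growth of tumour cells, stood at 3.46, 3.73, 9.81 and 9.34 RPKM, and was higher in UMUC3 (1.20 ± 0.093 SE, limma adjusted p = 5.20e-05). This RNA has a closely related copy elsewhere on its chromosome, so its reads are uncertain. LINC00342 stood at 10.7, 7.42, 8.45 and 8.40 RPKM. Its lines overlapped, and the difference did not pass the test (limma adjusted p = 0.601). LINC00674 stood at 6.27 and 7.85 RPKM in T24T and 4.83 and 6.35 RPKM in UMUC3, and LINC00641 at 3.33, 3.45, 6.14 and 5.75 RPKM. For LINC00674 the lines overlapped as well, whereas for LINC00641 they did not. Limma still called LINC00674 higher in T24T (limma adjusted p = 0.0219), but not with the libraries set to equal medians (limma adjusted p = 0.106).

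Of 26 LINC RNAs with published work in cells that were listed for this description, 24 were in the table and 18 were members. Limma called 9 of these 18 higher in UMUC3 and 6 higher in T24T, against the 29.6% and 40.8% of all genes given above. Beside those already described, LINC00857, reported in bladder cancer, stood at 2.72, 2.58, 4.17 and 4.52 RPKM, and LINC01116 at 0.521, 0.547, 2.52 and 2.42 RPKM. Both were higher in UMUC3 in every library. LINC00467 (2.62, 2.42, 0.9503 and 0.9297 RPKM) and LINC00963 (2.68, 2.67, 0.736 and 0.805 RPKM) were higher in both T24T libraries. LINC00662 stood at 1.31, 1.19, 1.99 and 1.56 RPKM. LINC00339 (3.74, 3.58, 3.07 and 3.55 RPKM) and LINC01296 (2.33, 2.07, 2.15 and 1.97 RPKM) did not pass the test. LINC01296 belongs to a family of near-identical pseudogenes, so its reads are uncertain. Of 40 long noncoding RNAs under other names, 36 were in the table, and of the 27 tested 17 were higher in UMUC3 and 5 in T24T.

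Of 9 LINC symbols listed as now read as small protein genes, 5 were in the table and 4 were members. The fifth, LINC00961, was at 0.0160 to 0.0719 RPKM. LINC00493 (SMIM26) stood at 5.42, 5.56, 6.91 and 6.01 RPKM, and LINC00116 (MTLN) at 1.46, 1.32, 1.10 and 1.03 RPKM. Neither passed the test between the lines (limma adjusted p = 0.109 and 0.0873). LINC01420 (NBDY), at 6.48, 5.69, 3.34 and 3.43 RPKM, was higher in T24T (limma adjusted p = 8.76e-04), and LINC00998 (SMIM30), at 3.03, 3.20, 5.45 and 4.80 RPKM, was higher in UMUC3 (limma adjusted p = 0.00243). LINC00493 shares 144 exonic bases on its strand with DTD1, which was at 15.1 to 18.97 RPKM. LINC00094 (BRD3OS), which was not on that list, stood at 4.22, 3.78, 3.54 and 4.29 RPKM and shares 1281 bases with BRD3 on the opposite strand.

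Promoter sequences were set beside these line differences because the members ranged from near-equal to over 100-fold apart between the lines. RefSeq promoters (250 bases before to 50 bases after a start, GRCh38.p14) were matched for 69 members, and 60 whose start lay within 1000 bases of the deposited 5′ end were used. Those of an RNA high in UMUC3, an RNA high in T24T and 2 RNAs expressed in both lines are printed as examples 5′ to 3′ on the plus strand, on which all 4 genes lie, with each CG dinucleotide in capitals. LINC00460 (chr13:106376314-106376613) holds 8 CG, LINC00973 (chr3:98980805-98981104) holds 1, LINC01578 (chr15:92882593-92882892) holds 36 and LINC00493 (chr20:18567182-18567481) holds 26.
LINC00460: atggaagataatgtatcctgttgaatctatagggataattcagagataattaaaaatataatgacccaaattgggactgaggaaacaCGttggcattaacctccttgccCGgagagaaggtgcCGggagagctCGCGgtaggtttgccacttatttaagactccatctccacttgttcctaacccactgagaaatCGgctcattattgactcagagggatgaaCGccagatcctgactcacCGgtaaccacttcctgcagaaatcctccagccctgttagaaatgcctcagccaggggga
LINC00973: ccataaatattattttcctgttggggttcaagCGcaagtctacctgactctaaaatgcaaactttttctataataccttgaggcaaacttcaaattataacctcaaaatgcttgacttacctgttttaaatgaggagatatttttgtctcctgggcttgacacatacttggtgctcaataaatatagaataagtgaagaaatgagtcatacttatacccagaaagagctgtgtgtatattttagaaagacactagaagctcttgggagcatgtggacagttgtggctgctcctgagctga
LINC01578: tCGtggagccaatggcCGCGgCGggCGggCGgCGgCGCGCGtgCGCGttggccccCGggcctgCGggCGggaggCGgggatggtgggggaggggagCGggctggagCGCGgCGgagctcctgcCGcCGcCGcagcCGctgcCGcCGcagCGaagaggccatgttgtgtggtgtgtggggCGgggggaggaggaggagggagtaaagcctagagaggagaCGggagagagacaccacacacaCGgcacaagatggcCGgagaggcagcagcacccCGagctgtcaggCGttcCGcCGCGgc
LINC00493: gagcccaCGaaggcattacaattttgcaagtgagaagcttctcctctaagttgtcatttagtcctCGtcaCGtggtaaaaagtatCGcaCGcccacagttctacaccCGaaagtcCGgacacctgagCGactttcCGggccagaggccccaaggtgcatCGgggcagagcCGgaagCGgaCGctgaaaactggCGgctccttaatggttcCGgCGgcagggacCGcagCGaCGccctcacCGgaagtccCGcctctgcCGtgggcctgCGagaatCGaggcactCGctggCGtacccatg

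The windows of LINC00460 and LINC00973, each over 10-fold apart between the lines, hold few CG, and those of LINC00493 (under 2-fold) and LINC01578 (2.55-fold) hold many. Of the 28 members at least 10-fold different between the lines, 19 had a promoter that was used. LINC01029 and LINC00707 were among those left out. These 19 promoters had a median of 6 CG, with 6 for the 12 higher in UMUC3 and 7 for the 7 higher in T24T. Of the 41 members under 2-fold apart, 30 had a promoter that was used, with a median of 24 CG. The 8 used promoters of members between 2-fold and 10-fold had 14. At least 20 CG were present in 3 of the 19 (15.8%) and in 20 of the 30 (66.7%), against 41.2% of all 35116 promoters in the table and 68.0% of those of protein-coding genes at 1 RPKM. The 3 of the 19 were LINC00884 (38 CG) among the RNAs of UMUC3, and LINC00511 (35) and LINC00960 (22) among those of T24T. Among the 30, windows under 20 CG included those of LINC00294 (1), LINC00641 (2), LINC00339 (7) and LINC01278 (7). LINC01021 had no CG in its window. These counts are a description of windows set by RefSeq, and the start used in these cells was not measured.

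**Figure D4:**
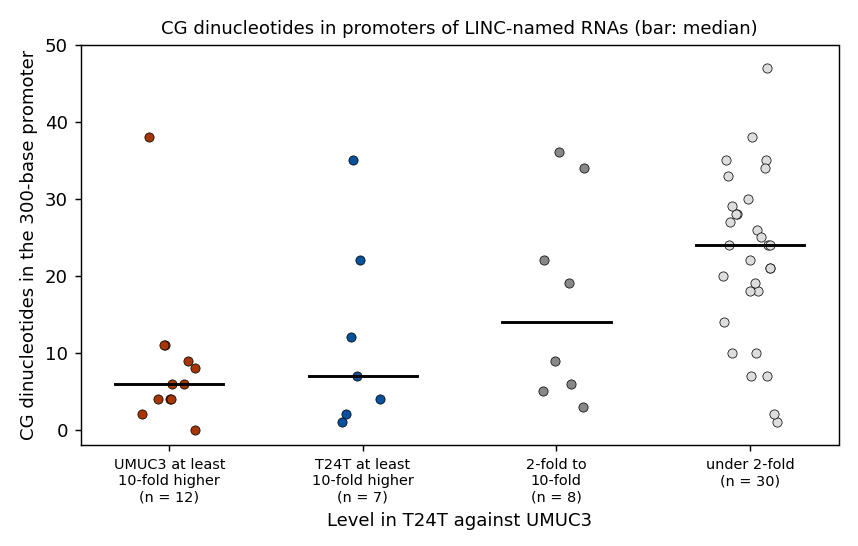
Number of CG dinucleotides in the 300-base RefSeq promoter (vertical axis) of the LINC-named RNAs, 1 point per RNA, grouped by their difference between T24T and UMUC3, with bars at the medians. The medians are 6, 7, 14 and 24 from left to right, and both 10-fold groups hold single promoters with 35 or more.

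The letters GGGCGG, a binding element of SP1-type factors, were found on either strand in 7 of the 19 promoters of members at least 10-fold apart (36.8%) and 18 of the 30 under 2-fold (60.0%), against 45.0% of all promoters in the table. TATAAA was found in 15.8% and 10.0%, against 11.5% of all. The letters TGANTCA, a binding element of AP-1 factors that reads the same on both strands, were found in 6 of the 19 (31.6%) and 2 of the 30 (6.67%), against 7.71% of all. They are present in the windows of LINC00460, LINC00973, LINC01443, LINC01518, LINC01271 and LINC01629. Among promoters of protein-coding genes at 1 RPKM the shares were 67.5% for GGGCGG, 5.92% for TATAAA and 4.92% for TGANTCA. None of these 3 motifs overlaps another by its letters, except that CG is part of GGGCGG.

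Members far from coding genes had the larger line differences. The nearest protein-coding gene was a median of 27284 bases away, 27 members lay within 5 kb of one or overlapped its span, and 26 lay more than 100 kb from any. Among pairs in which both genes had at least 100 reads, the median absolute log2 line difference of the member was 0.698 for 22 members within 5 kb, 1.45 for 32 members from 5 kb to 100 kb and 3.18 for 16 members beyond that. The line differences of member and neighbour had the same sign in 15 of the 22 close pairs, 22 of 32 and 13 of 16. Across the 22 close pairs Pearson's r was 0.672 and Spearman's rho 0.804, given as a description, since the pairs share the same libraries and some share exonic bases. At 5 kb to 100 kb the values were 0.261 and 0.225, and for the 16 pairs over 100 kb they were 0.0514 and 0.258.

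No member was called for BCUC-1. The limma test of BCUC-1 against vector over both lines, with line in the model and 1 residual degree of freedom, called 0 of 91 members and 0 of 15415 genes (0%). At an unadjusted p under 0.05 it listed 4 members, and limma-voom on the reads also called 0 members, with 5 at an unadjusted p under 0.05. Over all genes 4.23% were under 0.05 by limma and 4.09% by limma-voom, so these counts are near the background. The 4 by limma were LINC01273, LINC00674, LINC01023 and LINC01322. LINC01273 stood at 3.40 and 2.04 RPKM in T24T vector and BCUC-1 and at 1.18 and 0.738 RPKM in UMUC3 vector and BCUC-1 (log2 difference -0.43 ± 0.11 SE, unadjusted p = 0.00528, limma adjusted p = 0.531). It was lower with BCUC-1 in both lines, though on 72 and 43 reads in T24T and 28 and 15 reads in UMUC3. LINC00674 was higher with BCUC-1 in both lines, by 0.31 ± 0.088 SE (limma adjusted p = 0.707). LINC01023, a single-exon RNA of 436 bases, stood at 1.26, 0.681, 1.04 and 0.807 RPKM.

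Within T24T, 63 members had at least 100 reads in the pair. At a fold of 1.5 with no test, 1 was higher and 3 were lower with BCUC-1, while 0.694% of all 14120 genes passed (0.0708% higher and 0.623% lower). LINC01311 was the one higher, with 49 reads in vector and 82 in BCUC-1, a ratio of 1.68 (95% interval 1.17 to 2.44). LINC01273 (ratio 0.600, 0.401 to 0.887), LINC00843 (0.658, 0.466 to 0.924) and LINC01001 (0.666, 0.542 to 0.817) were lower. The next were LINC00621 (0.672), LINC01355 (0.681) and LINC00342 (0.691). LINC00342 rests on the most reads of these, 665 in vector and 458 in BCUC-1, and its interval of 0.612 to 0.780 excludes 1. Its ratio in UMUC3 was 0.995 (0.881 to 1.12). By difference of log2(RPKM + 1), which shrinks the ratio of low genes, none of the members passed 1.5-fold in either line.

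On the higher side in T24T the values were small after LINC01311. LINC00987 had a ratio of 1.26, LINC00674 1.25, LINC00623 1.18, LINC01004 1.12 and LINC00205 1.11, and the interval of each holds 1. Intervals that exclude 1 were found for 11 of the 63 members, 1 above and 10 below, against 16.4% of all 14120 genes (5.67% above and 10.7% below). The members had a median of 343 reads in the pair and all genes 1174. The median log2 ratio of the 63 members was -0.10 and that of all genes -0.020, and 61.9% of the members were below 0 against 57.5% of all genes. The ratios of the members had an SD of 0.248 and those of all genes 0.153, on fewer reads per gene for the members.

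Within UMUC3, 75 members had at least 100 reads in the pair, and 1 was higher and 1 lower at 1.5-fold, while 1.39% of all 13795 genes passed (0.964% higher and 0.428% lower). LINC00843 was higher, with 69 reads in vector and 92 in BCUC-1 (ratio 1.55, 1.13 to 2.16). LINC01322 was lower, with 262 and 140 reads (0.623, 0.504 to 0.768). Short of 1.5-fold, LINC00926 had a ratio of 1.49, LINC01443 of 1.46, LINC00674 of 1.31, LINC01605 of 1.26 and LINC01410 of 1.25. On the lower side LINC01534 had a ratio of 0.696, LINC00662 of 0.783, LINC01583 of 0.784, LINC00997 of 0.804 and LINC01186 of 0.806. Of these members short of 1.5-fold, the intervals of LINC00926, LINC01443 and LINC00662 exclude 1. The intervals of all the others named hold 1, such as that of LINC01534 (0.466 to 1.03).

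The 3 most abundant members of UMUC3 were lower with BCUC-1 by small ratios with narrow intervals. The ratio was 0.822 for LINC00707 (0.764 to 0.884), 0.850 for LINC00958 and 0.894 for LINC01029. In T24T it was 1.08 for LINC00707 and 1.02 for LINC00958, with intervals that hold 1, and LINC01029 had only 14 reads there. The next members of UMUC3 by RPKM, LINC00941, LINC00460 and LINC01021, had UMUC3 ratios of 0.968, 1.03 and 1.04, and each interval holds 1. Over the 75 members the median log2 ratio was 0.012, against 0.034 for all genes, and with equal medians it turned to -0.022. Of the 75 members, 12 intervals excluded 1, 5 above and 7 below, against 37.2% of all 13795 genes (21.8% above and 15.4% below). The members had a median of 285 reads and all genes 1171.

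Across the lines, 50 members had at least 100 reads in both pairs. Of these, 6 were higher and 14 lower with BCUC-1 in both lines (12.0% and 28% of the members), against 24.9% and 24.1% of 12771 genes, and 30 had opposite signs. Between the log2 ratios of the 2 lines Pearson's r was -0.15 and Spearman's rho -0.19 across the 50 members, a description over genes that share the libraries. The members higher in both lines were LINC00674, LINC00294, LINC00847, LINC00649, LINC01311 and LINC01106. LINC00294 had log2 ratios of 0.11 in T24T and 0.20 in UMUC3. Among the 14 lower in both, the largest ratios in the weaker line were those of LINC00997 (-0.25 and -0.31) and LINC00662 (-0.14 and -0.35), with LINC00680, LINC01296, LINC00116 and LINC01139 at smaller values. The described RNAs had median log2 ratios of -0.079 in T24T (15 members) and -0.0077 in UMUC3 (17 members).

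**Figure D5:**
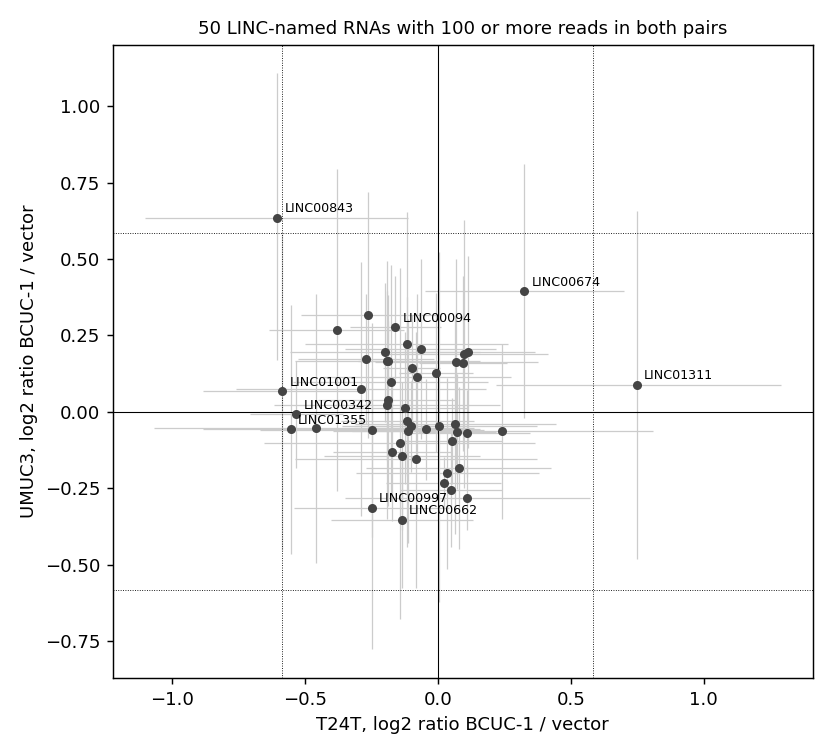
Log2 ratio of BCUC-1 over vector in T24T (horizontal axis) and UMUC3 (vertical axis) for the 50 LINC-named RNAs with at least 100 reads in both pairs, with exact 95% intervals of counting error as grey bars and dotted lines at 1.5-fold. Most points lie within the dotted lines, LINC01311 is beyond 1.5-fold in T24T alone, and LINC00843 lies beyond it downward in T24T and upward in UMUC3.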

How the data were processed

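RNA was sequenced from 4 libraries, 1 per group, grouped by sample title. The authors deposited RPKM per gene and library and, per the file headers, a Length of unit "other" in exonic bases. The submitters' processing notes name Bowtie 0.12.2. Neither build nor annotation is given in the sources used here. Of 83 members with a single GENCODE 29 entry, 75 had the same start or end there, so coordinates are read as GRCh38.

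RPKM times length gave whole reads for 100% of values (tolerance 0.001), and depths of 23679229, 23588847, 26497894 and 22730112 reads, in the order vector and BCUC-1 of T24T, then of UMUC3. Limma 3.58.1 (R 4.3.3) was fitted on log2(RPKM + 1) over all genes. A log2(RPKM + 1) difference understates the change of low genes. Within a line, RPKM ratios have exact 95% intervals from the recovered reads, with no test. Alternatives were other scalings, filters, pseudocounts, limma-voom, folds, read minimums and removal of the GC trend, and the 10-fold count with its alternatives was added after the data were seen.

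The named members were the 10 highest by mean level, the 10 largest log2(RPKM + 1) line differences each way, the 6 largest BCUC-1 ratios each way in each line, up to 6 each way shared by both lines, 3 on each side of the threshold, and members of the small protein and described lists. The members and lists were chosen with earlier results of these data known.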

Additional observations from a re-analysis of the deposited data

Results flagged for a closer look

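LINC00843 went opposite ways in the lines. Its log2 ratio of BCUC-1 over vector was -0.60 in T24T (5.35 and 3.52 RPKM in vector and BCUC-1) and 0.64 in UMUC3 (3.66 and 5.69 RPKM). With 1 library per group the difference was not tested. RefSeq names the locus TIMM23B-AGAP6, and 131 of its bases (18.4% of its length) lie in an exon of TIMM23B on the same strand, which stood at 5.15, 4.45, 5.77 and 5.56 RPKM.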

How the results depend on the processing

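No paired analysis was possible by replicate number, because the groups hold 1 library each and the labels carry none, but the line was a term of the BCUC-1 test. No member was called for BCUC-1 over both lines under any of the 7 other settings, including no term for the line, although over all genes limma-voom called 13 and a floor of 5 RPKM called 60. For the line contrast, 68 members were called, 15 of 18 with a floor of 5 RPKM, where fewer members were tested, and 39 were at least 2-fold apart in the vector libraries alone and 39 in the BCUC-1 libraries alone (background 26.9% and 25.6%). The other line settings gave 62 to 70. In T24T the 4 members at 1.5-fold became 0 at 2-fold, 0 with at least 500 reads, 0 by difference of log2(RPKM + 1) and 2 with equal medians. In UMUC3 the 2 became 0 at 2-fold, 0 with at least 500 reads, 0 by difference of log2(RPKM + 1) and 5 with at least 20 reads. The cause of these changes was not tested beyond the smaller or larger number of members that a minimum leaves. The median log2 ratio in T24T stayed below 0 in all settings run (-0.10 to -0.066), whereas that in UMUC3 was -0.052 with at least 500 reads, -0.039 for members without exon overlap, -0.022 with equal medians and -0.018 with the GC trend removed. The 10-fold line count of 28 became 6 with at least 500 reads in all and was 22 to 31 in the other settings, all chosen after seeing the data. With 1 library per group, depth limits each ratio to the width of its interval.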
